A study of Mus musculus with 30 samples.

Results

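Transcripts of 41 chaperone and unfolded protein response genes were measured by RNA-sequencing in C2C12 myotubes, and they make up 41 of the 55487 genes in the deposited count table. The genes were taken by name from a fixed list with no cut on their measured values, but the list was chosen with earlier results of these data known. Each gene was found in the table by its Ensembl identifier and gene symbol. All 41 passed the filter on low counts and were among the 15907 genes tested. They fall into 5 classes by where the protein works. ER folding has 14 genes, the sensors of the unfolded protein response (UPR) with ER-associated degradation (ERAD) have 7, cytosolic and nuclear heat shock has 11, mitochondrial chaperones have 3 and small heat shock proteins have 6.

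C2C12 is an established mouse myoblast line, of wild-type genotype per the labels, that fuses into multinucleated myotubes when serum is lowered. All cells were differentiated for 4 days in low glucose medium with 2% horse serum and were then cultured for another 4 days, for 8 days in total. The 5 groups held 6 libraries each. Myotubes of the 2% HS group stayed on horse serum, and those of the SD group were serum deprived (no serum). The other groups were serum deprived with 100 nM metformin (MET), with 500 nM leucine (LEU) or with 100 nM metformin and 500 nM leucine together (MET+LEU). A single line in culture has no circulation, innervation or other tissue. The sources used here do not say whether the 6 replicates of a group came from separate cultures, so p-values measure the spread between these libraries, which may be technical.

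Chaperones hold unfolded proteins and help them reach their folded state. In the ER, where secreted and membrane proteins fold, the HSP70 family member BiP (Hspa5) works with J-domain partners, the lectins calreticulin (Calr) and calnexin (Canx) hold glycoproteins, and protein disulfide isomerases (Pdia3, Pdia4 and Pdia6) form disulfide bonds. When unfolded proteins accumulate there, the UPR sensors IRE1 (Ern1), ATF6 and PERK (Eif2ak3) signal to the nucleus, and the transcription factors XBP1 and ATF6 raise ER chaperone genes through a promoter sequence called the ER stress element. In the cytosol and nucleus, heat shock factor 1 (Hsf1) raises HSP70 and HSP90 family genes through the heat shock element. Muscle also carries large amounts of small heat shock proteins such as αB-crystallin (Cryab), which bind proteins of the Z-disc and the intermediate filaments.

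These promoter elements are shown because they are the known binding sequences of the factors that control the members, and because the members that carry them can then be followed through the comparisons. RefSeq promoter windows of GRCm38.p6, from 250 bases before to 50 bases after a transcription start, were found for 31 of the 41 members (36 windows, with 4 genes having more than 1). The ER stress element was searched on both strands as CCAAT and CCACG separated by 9 bases. It was found in 8 of the 31 members, in 0.137% of all 27025 genes with a window and in 0.119% of all 32851 windows. In the lines that follow the searched letters are in capitals, and each site is written 5′ to 3′ on the strand that reads CCAAT first.
Hspa5, chr2:34772020-34772048, + strand: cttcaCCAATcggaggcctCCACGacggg
Calr, chr8:84847070-84847098, + strand: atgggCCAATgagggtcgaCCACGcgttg
Pdia6, chr12:17266486-17266514, + strand: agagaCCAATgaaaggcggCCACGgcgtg
Creld2, chr15:88819515-88819543, - strand: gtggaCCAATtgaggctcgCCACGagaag
Hsp90b1 (upstream site), chr10:86705633-86705661, - strand: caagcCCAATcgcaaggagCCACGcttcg
Hsp90b1 (second site), chr10:86705528-86705556, + strand: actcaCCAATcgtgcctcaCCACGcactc
Dnajc3, chr14:118937822-118937850, + strand: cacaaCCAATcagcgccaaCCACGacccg
Canx, chr11:50325795-50325823, - strand: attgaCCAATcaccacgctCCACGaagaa
Syvn1, chr19:6046527-6046555, + strand: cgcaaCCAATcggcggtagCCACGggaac
The first 7 of these genes encode proteins of the ER lumen or membrane that take part in folding, and Syvn1 encodes the ubiquitin ligase HRD1 of ERAD. The matches lay upstream of the start site, the farthest beginning 212 and the nearest 44 bases before it. In 3 of the 9 sites (Calr, Creld2 and the second site of Hsp90b1) the element read on the strand opposite to the gene.

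A shorter form, ERSE-II, was searched as ATTGG and CCACG separated by 1 base. It was found in 2 of the 31 members, in 0.0444% of genes with a window and in 0.0365% of windows. The capitals again mark the searched letters.
Herpud1, chr8:94386372-94386392, + strand: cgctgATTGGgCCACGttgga
Dnajb11, chr16:22857847-22857867, + strand: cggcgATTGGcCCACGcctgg
The Herpud1 site began 52 bases before the start and the Dnajb11 site 8 bases after it. Herpud1 encodes an ER membrane protein of ERAD, and Dnajb11 encodes the BiP partner ERdj3. A heat shock element of 3 alternating units (GAA, TTC and GAA, or the reverse complement, with 2 bases between units) was searched next. It was present in 3 of the 31 members, in 0.662% of genes with a window and in 0.603% of windows.
Hspe1, chr1:55088054-55088081, + strand: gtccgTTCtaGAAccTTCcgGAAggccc
Hsph1, chr5:149636283-149636305, - strand: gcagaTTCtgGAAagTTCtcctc
The Hsph1 site began 16 bases after the start of that gene, which encodes an HSP110 co-chaperone of HSP70. The Hspe1 site holds 2 overlapping matches and is also the Hspd1 site, read from the other strand. Hspd1 and Hspe1, the mitochondrial chaperonin HSP60 and its lid HSP10, lie head to head on chromosome 1, so the same bases lie upstream of both RefSeq starts. The UPR element (TGACG directly followed by TGG) matched no member window and 0.676% of all windows. A CCAAT box was present in 22 of the 31 members, in 41.1% of genes with a window and in 37.4% of windows. A match is a description of the sequence and does not show binding, and a window without a match says only that these letters are not in it.

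**Figure D1:**
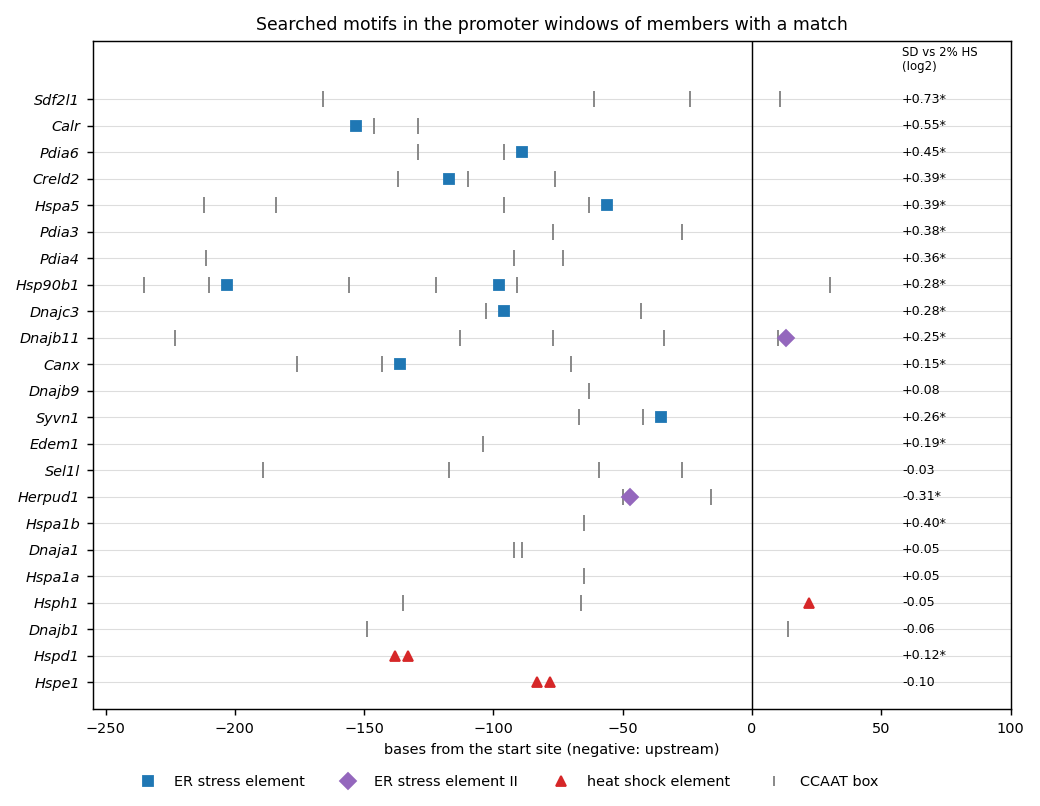
Positions of the searched motifs in the RefSeq promoter windows of the members with a match; the x axis is the number of bases from the transcription start and each row is a gene. Squares are ER stress elements, diamonds ERSE-II, triangles heat shock elements and grey ticks CCAAT boxes, and the numbers at the right are log2 fold changes in SD vs. 2% HS, with an asterisk where the adjusted p was under 0.05. The 8 genes with a square all carry an asterisk and a positive value, and so do Sdf2l1, Pdia3, Pdia4 and Dnajb11, which have no square. Over all genes tested 13.9% rose in SD vs. 2% HS.

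Library depth was similar across groups, from 12784960 to 19604103 counted reads, and the members took 0.779% to 0.905% of the counts. Values are given as CPM, read counts scaled to a common library size with the trimmed mean of M values (TMM), and the members with the fewest reads in SD were Hspb3 and Hspa1a, at medians of 3.18 and 3.87 CPM. Replicates differed little for these genes. The median biological coefficient of variation was 0.0558 over the members and 0.0783 over all genes tested. One library stood apart, MET+LEU replicate 6, with 5.85% of counts on ribosomal RNA genes (at most 1.96% in the other 29) and 7.64% on the mitochondrial ribosomal RNAs (at most 0.760%). Counts of called members in comparisons that involve MET+LEU are given with and without replicate 6. The rest of the MET+LEU group also differed from SD. Their mitochondrial ribosomal RNA share was 0.649% to 0.760%, beside 0.281% to 0.367% in SD, and some MET and LEU libraries reached that range. All TMM factors of MET+LEU (at most 0.985) were below those of SD (at least 1.002). Leaving out replicate 6 does not remove this difference, and its part in the chaperone results was not tested.

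Myotube identity was checked with marker lists. All 10 myotube markers, among them the embryonic myosin Myh3, the desmin gene Des and Myog, were above 1 CPM in every group. The summed level of the list was 40715 to 43592 CPM in 2% HS and 33323 to 36014 CPM in SD. At an adjusted p under 0.05 (edgeR), 1 of the 10 rose and 4 fell in SD vs. 2% HS. Over all genes tested 13.9% rose and 13.9% fell. Medians in 2% HS and SD were 309 and 152 CPM for Ckm, 31052 and 24941 CPM for Ttn, and 1050 and 1114 CPM for Myh3. Markers of leukocytes summed to at most 4.43 CPM, of endothelium to at most 0.770 CPM and of adipocytes to at most 0.268 CPM in any library, and Ptprc, Kdr and Adipoq had a median of 0. A list of fibroblast genes, 4 of 5 of which were detected (the collagens Col1a1 and Col3a1, with Dcn and Pdgfra), summed to 2986 to 3296 CPM in 2% HS and to 5201 to 5518 CPM in SD. In bulk RNA, a change in the number of cells of a type and a change in RNA per cell cannot be told apart. The part of these shifts in the chaperone results was not tested.

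Levels between genes are compared here per annotated exon length, as the group median of CPM divided by that length in kilobases (RPKM). The length covers all exons annotated for a gene and can exceed that of a single transcript. Another choice of length could therefore change the order of neighbours. In SD the highest levels belonged to Hsp90ab1, the constitutive cytosolic HSP90, at 367 RPKM and to Calr at 297 RPKM. The small heat shock proteins Hspb8 and Cryab followed at 194 and 161 RPKM, on either side of the constitutive cytosolic HSP70, Hspa8, at 184 RPKM. BiP stood at 109.7 RPKM and GRP94 (Hsp90b1), the HSP90 of the ER, at 105 RPKM, next to the mitochondrial HSP70, Hspa9, at 100.1 RPKM. The lowest were the stress-inducible HSP70 genes, with Hspa1b at 6.92 and Hspa1a at 1.3 RPKM, and Hspb3 at 4.08 RPKM. These are levels, no test of their order was made, and neighbours such as Hspa5, Hsp90b1 and Hspa9 had library ranges that overlapped.

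The first comparison asks how 4 days without serum, an atrophy stimulus for myotubes, changed the chaperone transcripts. In SD vs. 2% HS, 20 of 41 members rose and 3 fell at an adjusted p under 0.05 (edgeR, Benjamini-Hochberg adjustment over all genes tested), where 13.9% of all genes tested rose and 13.9% fell. Of the 20, 13 were ER folding genes. The median log2 fold change was 0.37 over the 14 ER folding genes, 0.07 over the UPR and ERAD genes, 0.00 over the cytosolic and nuclear genes, -0.10 over the mitochondrial genes and 0.04 over the small heat shock proteins, beside 0.00 over all genes tested. The class means per library show the same split. For ER folding, the mean log2 CPM relative to the 2% HS mean ran from -0.04 to 0.06 in the 2% HS libraries and from 0.23 to 0.42 in the SD libraries, while for the cytosolic and nuclear genes the SD libraries ran from -0.07 to 0.14 and overlapped those of 2% HS at -0.04 to 0.05.

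**Figure D2:**
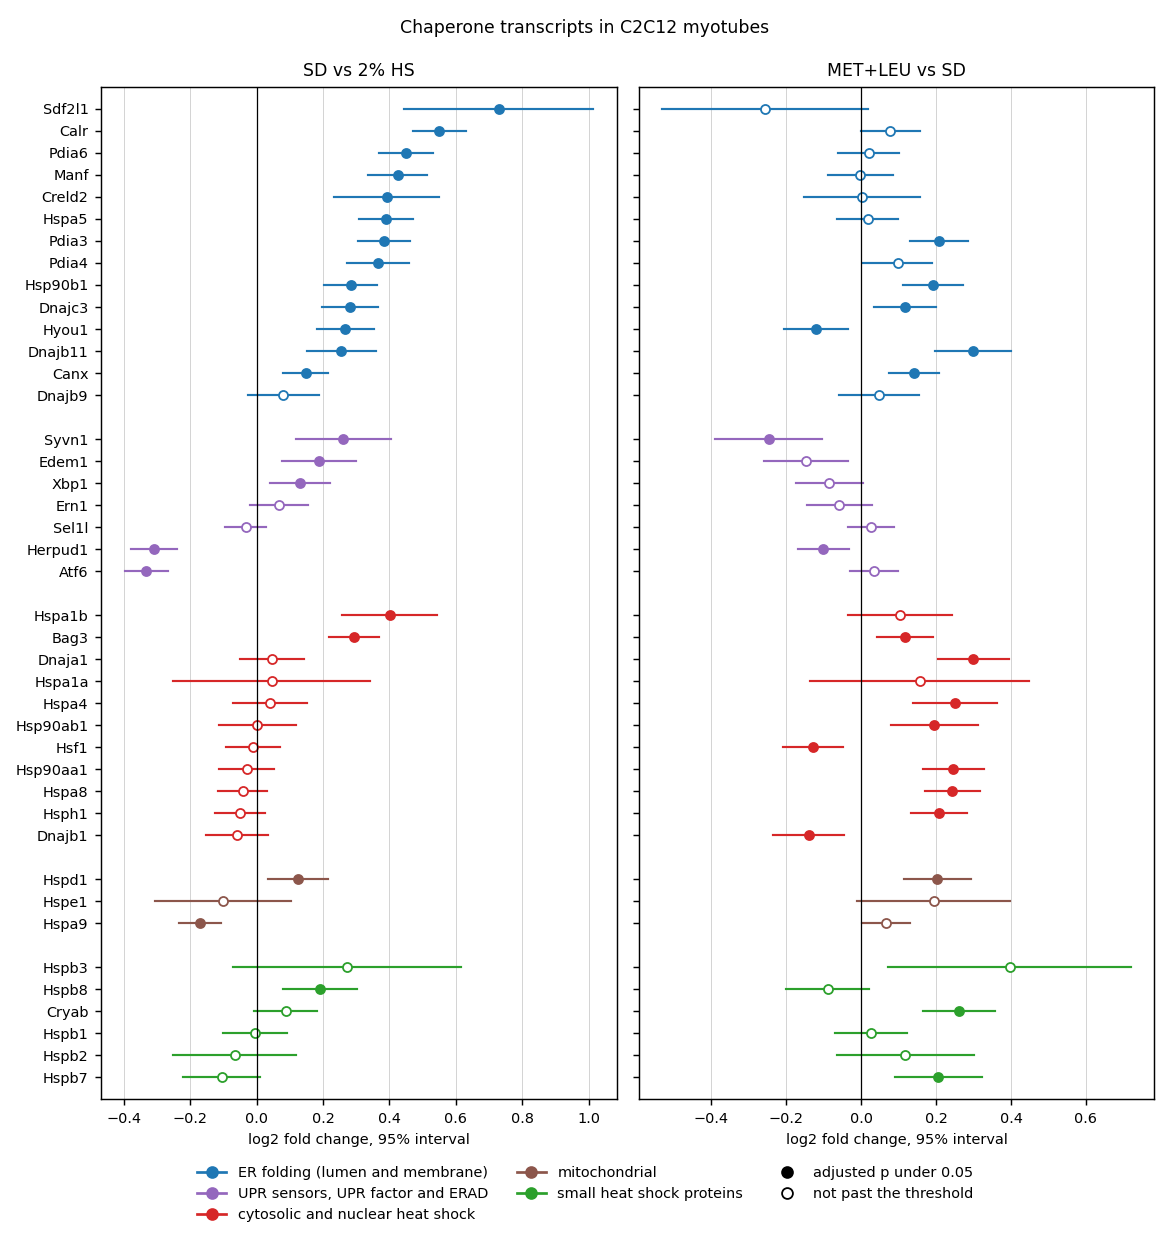
Log2 fold changes of the 41 members in SD vs. 2% HS (left) and MET+LEU vs. SD (right), in rows grouped and coloured by class; bars are 95% confidence intervals from edgeR over 6 libraries a group and filled points had an adjusted p under 0.05. At the left 13 of 14 ER folding genes lie to the right of 0 with filled points, and at the right 7 of 11 cytosolic and nuclear genes do.

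BiP (Hspa5), the ER HSP70, was counted at 336, 353 and 391 CPM (lowest, median and highest library) in 2% HS and at 426, 464 and 511 CPM in SD. Every SD library was above every 2% HS library (log2 fold change 0.39 ± 0.04 (SE), adjusted p = 7.54e-11). Calr rose from 579, 584 and 591 CPM to 791, 856 and 919 CPM, again with no overlap (log2 fold change 0.55 ± 0.04 (SE), adjusted p = 7.04e-16). Calreticulin binds glycoproteins and calcium in the ER lumen, and its transcript had the highest per-length level of the ER class. Pdia6, a disulfide isomerase, rose from 96.5, 102 and 108 CPM to 127, 140.5 and 154 CPM (log2 fold change 0.45 ± 0.04 (SE), adjusted p = 1.27e-12). Sdf2l1, a partner of the ERdj3 J-domain protein, had the largest fold change of the members and the lowest per-length level of the ER class in SD. It was counted at 4.55, 5.22 and 6.52 CPM in 2% HS and at 5.78, 8.43 and 12.1 CPM in SD, and the libraries overlapped (log2 fold change 0.73 ± 0.14 (SE), adjusted p = 7.32e-05).

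The other ER folding genes moved in the same direction by log2 fold changes between 0.08 and 0.42. Manf and Creld2, small secretory-pathway proteins known as ER stress-induced, rose by 0.42 and 0.39. The disulfide isomerases Pdia3, which works with calreticulin and calnexin, and Pdia4 rose by 0.38 and 0.36. Hsp90b1 and the nucleotide exchange factor Hyou1 rose by 0.28 and 0.27. Of the BiP J-domain partners, Dnajc3 and Dnajb11 rose by 0.28 and 0.25, while Dnajb9, also called ERdj4, did not pass the test (log2 fold change 0.08 ± 0.05 (SE), adjusted p = 0.280, 95% interval -0.03 to 0.19). Canx, the membrane-bound lectin, had the smallest called rise at 0.15. The adjusted p-values of these called genes ran from 3.35e-11 (Pdia3) to 4.97e-04 (Canx).

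All 8 members whose window held an ER stress element were called higher in SD vs. 2% HS, 7 in the folding class and Syvn1 in ERAD, with a median log2 fold change of 0.34. Over all genes tested 13.9% rose. Of the other 7 ER folding genes, Sdf2l1, Pdia3, Pdia4, Dnajb11 and Dnajb9 had a window without the element and Hyou1 and Manf had no window, and all but Dnajb9 were called higher as well. Outside the members, 29 genes had the element in a window, and 10 of them were tested. Of these 10, 3 rose (Adcy3, Hnrnpa3 and Spats2l) and 1 fell, with a median of -0.04. ERSE-II gave no single direction among the members, since Dnajb11 rose and Herpud1 fell.

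The UPR sensors and ERAD genes did not move as 1 group, with 3 called higher and 2 called lower of 7. Atf6, the sensor that is cut to a transcription factor, fell from 253, 259 and 273 CPM in 2% HS to 191, 209.7 and 214 CPM in SD, with every SD library below every 2% HS library (log2 fold change -0.33 ± 0.03 (SE), adjusted p = 8.55e-12). Herpud1, which is known as a strongly ER stress-induced gene, fell from 259, 267 and 282 CPM to 206, 213 and 229 CPM, also without overlap (log2 fold change -0.31 ± 0.03 (SE), adjusted p = 3.48e-10). Syvn1 rose from 53.4, 61.9 and 63.9 CPM to 62.7, 70.1 and 85.9 CPM with overlapping libraries (log2 fold change 0.26 ± 0.07 (SE), adjusted p = 0.00433). Edem1, which picks out misfolded glycoproteins, rose by 0.19 (adjusted p = 0.00758). Its partner in ERAD Sel1l and the sensor Ern1 did not pass the test, at -0.03 and 0.07. Xbp1 was counted at 119.6, 123 and 127 CPM in 2% HS and at 129.6, 133 and 141 CPM in SD (log2 fold change 0.13 ± 0.04 (SE), adjusted p = 0.0229). That call was lost without any one of 2% HS replicates 1 and 2 or SD replicates 2 and 4. Gene counts sum the spliced and unspliced forms of Xbp1, so its splicing by IRE1 is not measured by them.

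Of the 11 cytosolic and nuclear heat shock genes, 2 rose and none fell in SD vs. 2% HS. Bag3, the co-chaperone that pairs with Hspb8 in removing damaged muscle proteins, rose from 90.0, 94.9 and 96.8 CPM to 108, 115 and 127 CPM without overlap (log2 fold change 0.29 ± 0.04 (SE), adjusted p = 1.70e-08). Hspa1b, a stress-inducible HSP70, rose from 13.2, 14.2 and 15.2 CPM to 14.8, 19.4 and 21.5 CPM (log2 fold change 0.40 ± 0.07 (SE), adjusted p = 1.59e-05). Its near-identical neighbour Hspa1a was counted at 2.59, 3.42 and 4.29 CPM in 2% HS and at 2.39, 3.87 and 4.24 CPM in SD, and did not pass the test (log2 fold change 0.05 ± 0.15 (SE), adjusted p = 0.857, 95% interval -0.25 to 0.34). The pair lies on the same strand of chromosome 17 (Hspa1b at 34956436 to 34959238 and Hspa1a at 34969190 to 34972156, GRCm38), and 49.9% of the 100-base stretches of Hspa1b and 56.5% of those of Hspa1a also occur elsewhere in the annotated transcripts, mostly in each other. How the counting split reads between them is not given in the sources used here, so the difference between the 2 genes is uncertain. Hsf1 was not called, at 79.7, 83.6 and 88.8 CPM in 2% HS and 80.7, 81.3 and 87.9 CPM in SD (95% interval of the log2 fold change -0.09 to 0.07). The other 8, which include the abundant Hspa8, Hsp90aa1 and Hsp90ab1, had log2 fold changes between -0.06 (Dnajb1) and 0.05 (Dnaja1), with Hspa1a in that range.

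The mitochondrial chaperones split. Hspa9, which pulls proteins into the mitochondrial matrix, fell from 474, 493 and 509 CPM to 423, 431 and 460.3 CPM, every SD library lying below every 2% HS library (log2 fold change -0.17 ± 0.03 (SE), adjusted p = 2.93e-05). Hspd1 was counted at 123, 134 and 134 CPM in 2% HS and 122, 143 and 158 CPM in SD (log2 fold change 0.12 ± 0.04 (SE), adjusted p = 0.0305). The Hspd1 call was lost without any one of 2% HS replicates 3 and 6 or SD replicates 3 and 6. Its promoter neighbour Hspe1, at 47.3, 57.2 and 62.9 CPM and 45.7, 54.2 and 61.6 CPM, did not pass the test (-0.10, 95% interval -0.31 to 0.10).

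Among the 6 small heat shock proteins only Hspb8 was called, rising from 329, 342 and 349 CPM to 363, 378 and 418 CPM (log2 fold change 0.19 ± 0.05 (SE), adjusted p = 0.00800). Cryab, at 211, 230.1 and 240.3 CPM in 2% HS and 222, 239 and 275 CPM in SD, had a log2 fold change of 0.09 with an interval of -0.01 to 0.18. Hspb7, a muscle-enriched member, was at 86.0, 95.8 and 103 and 80.4, 88.4 and 100.2 CPM (-0.10, interval -0.22 to 0.01). Hspb1, Hspb2 and Hspb3 had intervals that crossed 0, that of the low-count Hspb3 reaching from -0.07 to 0.62.

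Genes of the same pathways outside the 41 were read from fixed lists. Their counts stand beside 13.9% of all genes tested that rose and 13.9% that fell in SD vs. 2% HS. Of 18 other ER folding and oxidation genes tested, 10 rose and 1 fell in SD vs. 2% HS. The faller was Ero1a, an ER oxidase that recharges disulfide isomerases (log2 fold change -1.75 ± 0.18 (SE), adjusted p = 1.58e-08), which also had the largest fold change of the list. Of 18 other ERAD and translocation genes 7 rose and none fell, led by Selenos (0.35), a selenoprotein of the ERAD complex. Among 11 genes of the PERK branch and the integrated stress response, 2 rose and 5 fell. The risers were the sensor PERK (Eif2ak3, 0.30, adjusted p = 3.87e-05) and Ppp1r15a (0.28, adjusted p = 2.23e-05). Trib3, a target of that response, fell by 1.25 on the log2 scale (adjusted p = 1.05e-04), and Ddit3, the stress-induced factor CHOP, fell by 0.46 (adjusted p = 1.96e-04), while Atf4 was at 0.06 (adjusted p = 0.202). In the cytosolic lists 2 of 14 TRiC and prefoldin genes rose and none fell (Pfdn6 0.37), and 3 of 29 cytosolic co-chaperones rose and 4 fell (Hspb6 -0.39). Of 17 mitochondrial chaperones and proteases, 1 rose and 3 fell, the largest change being that of Hscb (-0.46).

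**Figure D3:**
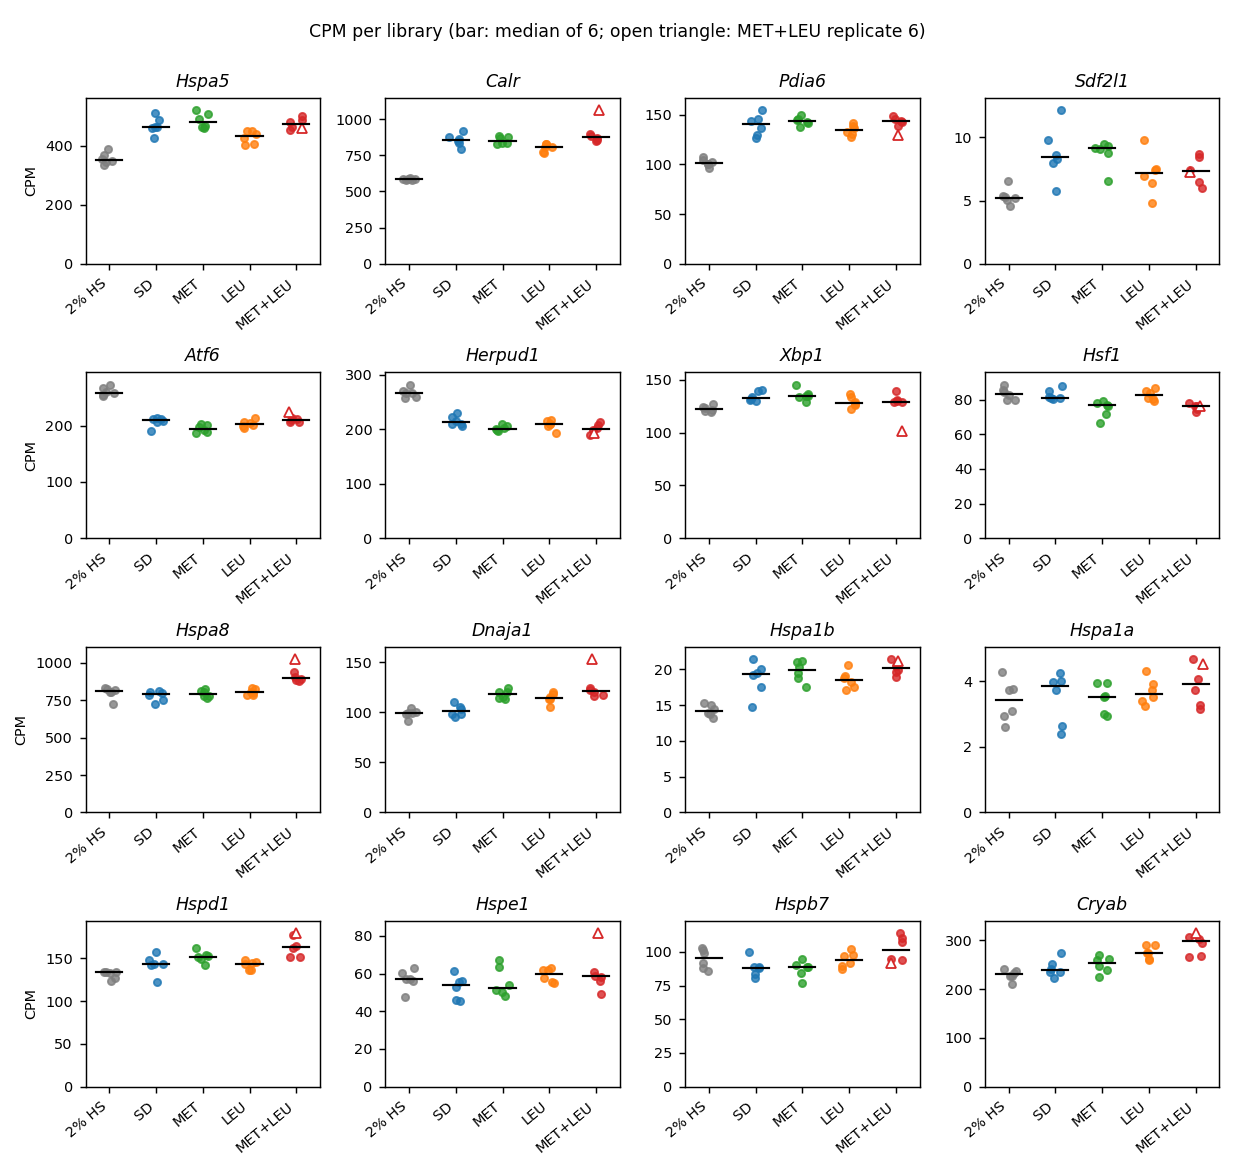
CPM of 16 members in each of the 30 libraries by group; each point is a library, the bar is the median of 6, the y axes start at 0, and the open triangle is MET+LEU replicate 6. The SD points lie above all 2% HS points for Hspa5, Calr and Pdia6 and below them for Atf6 and Herpud1, and the MET+LEU points lie above all SD points for Hspa8 and Dnaja1.

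Metformin or leucine alone was then compared with SD. In MET vs. SD, 1 of 41 members was called higher and none lower (edgeR), where 0.0754% of all genes tested rose and 0.0817% fell. The called gene was Dnaja1, a J-domain partner of cytosolic HSP70, at 95.2, 101 and 110.3 CPM in SD and 113, 118 and 124 CPM in MET (log2 fold change 0.21 ± 0.05 (SE), adjusted p = 0.0397). It was lost without any one of SD replicates 1, 2 and 5 or of MET replicates 1, 3, 4, 5 and 6. At an unadjusted p under 0.05, 10 of 41 members passed, beside 1597 of 15907 genes, and the DESeq2 Wald test called 1 lower. The class means per library ran from 0.35 to 0.44 for ER folding in MET, beside 0.23 to 0.42 in SD. Of the 41 intervals, 37 lay within 0.3 of 0 on the log2 scale, the exceptions being Syvn1, Hspa1a, Dnaja1 and Hspb3. In MET+LEU vs. SD, where 15 members rose and 5 fell, 27 of the 41 did. An interval within this limit therefore does not exclude a change of the size called elsewhere.

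In LEU vs. SD no member was called in either direction by edgeR, 9 of 41 passed an unadjusted p under 0.05, beside 1588 of 15907 genes, and the DESeq2 Wald test called 1 higher, where 0.233% of all genes tested rose and 0.321% fell. Cryab came nearest, from 222, 239 and 275 CPM in SD to 259.6, 274 and 292 CPM in LEU (log2 fold change 0.18 ± 0.05 (SE), adjusted p = 0.0783). Hspa5 went from 426, 464 and 511 CPM to 403, 433 and 449.6 CPM (log2 fold change -0.13 ± 0.04 (SE), adjusted p = 0.162). Of the 41 intervals, 35 lay within 0.3 of 0, the exceptions being Sdf2l1, Syvn1, Hspa1a, Hspe1, Hspb2 and Hspb3. The class means for ER folding ran from 0.27 to 0.33 in LEU. The count of members called higher reached 2 without MET+LEU replicate 6.

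The combination of metformin and leucine was then set against SD, a comparison that shares its SD libraries with those above. In MET+LEU vs. SD, 15 of 41 members rose and 5 fell (edgeR), where 10.6% of all genes tested rose and 7.8% fell. Without MET+LEU replicate 6 the counts were 14 and 2, beside 1217 higher and 958 lower of 16062 genes tested. Of the 11 cytosolic and nuclear genes 7 rose and 2 fell, and of the 14 ER folding genes 5 rose and 1 fell. The median log2 fold change was 0.20 over the cytosolic and nuclear genes, 0.06 over ER folding, -0.08 over UPR and ERAD, 0.19 over the mitochondrial genes and 0.16 over the small heat shock proteins, beside -0.01 over all genes tested.

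Hspa8, the constitutive HSP70, rose from 722, 792 and 810.2 CPM in SD to 879, 901 and 1027 CPM in MET+LEU, every MET+LEU library lying above every SD library (log2 fold change 0.24 ± 0.04 (SE), adjusted p = 7.30e-06). Without replicate 6 its log2 fold change was 0.21. Hspa8 shares 63.4% of its 100-base stretches with other annotated transcripts, processed copies among them, so part of its reads may be assigned elsewhere. Dnaja1 rose from 95.2, 101 and 110.3 CPM to 116, 121 and 153 CPM without overlap (log2 fold change 0.30 ± 0.05 (SE), adjusted p = 1.45e-05), and by 0.23 without replicate 6, which held its highest value. Hspa4 and Hsph1 encode exchange factors of HSP70. Hspa4 rose from 253, 289 and 299.6 CPM to 305, 318 and 440.3 CPM (log2 fold change 0.25 ± 0.06 (SE), adjusted p = 0.00145), a log2 fold change that was 0.15 without replicate 6. Hsph1, whose heat shock element is printed above, rose by 0.21 (adjusted p = 8.51e-05). Both cytosolic HSP90 genes were higher, Hsp90aa1 by 0.25 and Hsp90ab1 by 0.20 (0.11 without replicate 6, adjusted p = 0.0401). With only the groups compared, the calls of Hyou1, Dnajc3, Herpud1, Hsp90ab1, Dnajb1, Bag3 and Hsf1 were lost. Bag3 was at 122, 125 and 131 CPM against 108, 115 and 127 CPM (log2 fold change 0.12 ± 0.04 (SE), adjusted p = 0.0201), and its call was lost without SD replicate 2 or without SD replicate 4.

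The 2 members of the class that fell were Dnajb1 (log2 fold change -0.14 ± 0.05 (SE), adjusted p = 0.0316), the J-domain protein HSP40, and Hsf1. Without replicate 6 the Dnajb1 call was lost (log2 fold change -0.11, adjusted p = 0.0978). Hsf1 went from 80.7, 81.3 and 87.9 CPM to 73.1, 76.1 and 78.3 CPM, every MET+LEU library lying below every SD library (log2 fold change -0.13 ± 0.04 (SE), adjusted p = 0.0196). The stress-inducible HSP70 genes did not pass the test. Hspa1b was at 19, 20.2 and 21.4 CPM in MET+LEU (0.10, interval -0.03 to 0.24) and Hspa1a at 3.15, 3.90 and 4.68 CPM (0.16, interval -0.14 to 0.45).

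In the ER class Hspa5, Calr, Pdia6 and Sdf2l1, whose levels in SD vs. 2% HS are given above, were not called in MET+LEU vs. SD. The 2 comparisons share the SD libraries. A high SD value raises the first fold change and lowers the second, so no relation between them is read from these genes. Pdia3, at 0.38 in SD vs. 2% HS beside 0.39 for Hspa5, was called in both. Hspa5 was at 453, 473 and 502 CPM in MET+LEU (0.02, interval -0.06 to 0.10). Calr was at 852, 877 and 1062 CPM (0.08), Pdia6 at 129, 143 and 149 CPM (0.02) and Sdf2l1 at 5.96, 7.34 and 8.69 CPM (-0.26, interval -0.53 to 0.02). The called risers were Dnajb11 (log2 fold change 0.30 ± 0.05 (SE), adjusted p = 3.72e-05), Pdia3 (0.21), Hsp90b1 (0.19), Canx (0.14) and Dnajc3 (0.12). Hsp90b1 and Canx had every MET+LEU library above every SD library. The Dnajc3 call (adjusted p = 0.0420) was lost in 30 of 40 alternatives, and without replicate 6 the log2 fold change was 0.08 (adjusted p = 0.170). Hyou1 was the faller (log2 fold change -0.12 ± 0.04 (SE), adjusted p = 0.0398), and without replicate 6 it was at -0.09 (adjusted p = 0.114). Pdia4, Dnajb9, Manf and Creld2 lay between -0.0018 (Manf) and 0.10 (Pdia4) and were not called.

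No UPR or ERAD gene rose and 2 of 7 fell. Syvn1, which had risen in SD, went from 62.7, 70.1 and 85.9 CPM to 49.7, 61.4 and 66.7 CPM with overlapping libraries (log2 fold change -0.25 ± 0.07 (SE), adjusted p = 0.0114), and was at -0.21 without replicate 6. Herpud1 went from 206, 213 and 229 CPM to 189.5, 201 and 213 CPM (log2 fold change -0.10 ± 0.03 (SE), adjusted p = 0.0314), a call lost without replicate 6 (adjusted p = 0.0523). Xbp1 was at 102, 129 and 139.8 CPM (-0.08, and -0.04 without replicate 6) and Atf6 at 207, 211 and 224 CPM (0.03), neither of them called. Edem1 was at -0.15 (adjusted p = 0.0546), Ern1 at -0.06 and Sel1l at 0.03.

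The mitochondrial chaperonin Hspd1 rose from 122, 143 and 158 CPM to 151, 163 and 179.6 CPM (log2 fold change 0.20 ± 0.04 (SE), adjusted p = 8.35e-04), and by 0.17 without replicate 6. Hspe1 was at 49.1, 58.5 and 81.5 CPM (0.19, interval -0.01 to 0.40), its highest value being that of replicate 6, without which the log2 fold change was 0.09. Hspa9 was at 439.7, 454 and 494 CPM (0.07) and was not called. Among the small heat shock proteins Cryab rose from 222, 239 and 275 CPM to 265, 299 and 315 CPM (log2 fold change 0.26 ± 0.05 (SE), adjusted p = 1.23e-04), with 0.23 without replicate 6. Hspb7 rose from 80.4, 88.4 and 100.2 CPM to 91.6, 101 and 114 CPM (log2 fold change 0.21 ± 0.06 (SE), adjusted p = 0.00913). Cryab overlaps Hspb2 on chromosome 9, which was at 0.12 (interval -0.07 to 0.30), and the strand setting of the counting is not given in the sources used here. Hspb3, at 0.40, had the largest log2 fold change of the members and an adjusted p of 0.0786. Hspb8 was at 280.3, 378 and 405 CPM (-0.09) and Hspb1 at 0.03.

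**Figure D4:**
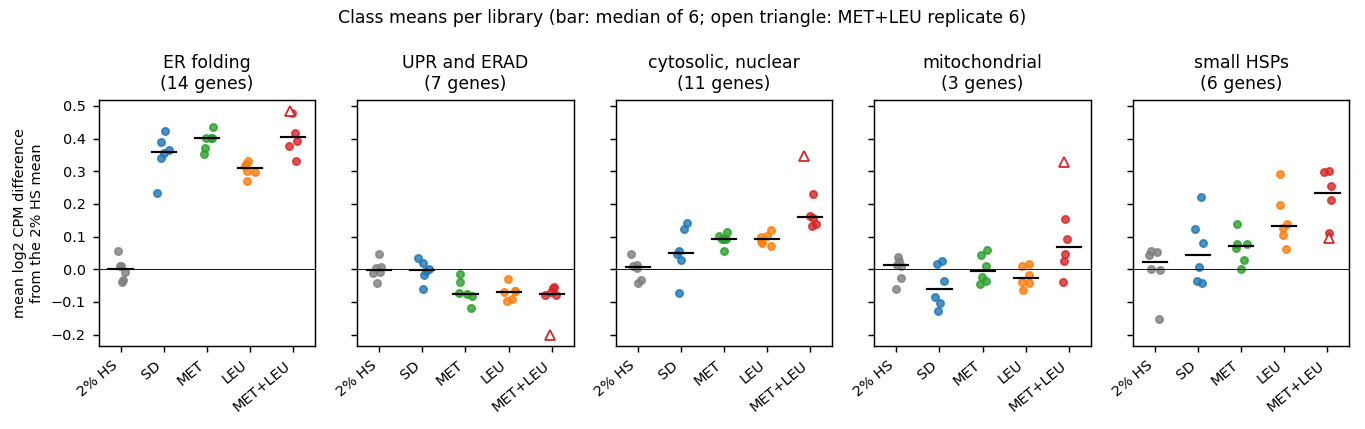
Mean log2 CPM of each class per library, as the difference from the mean of the 2% HS libraries; points are the 6 libraries of a group, bars their median and the open triangle MET+LEU replicate 6. All serum-deprived libraries lie at 0.23 or above for ER folding, and for the cytosolic and nuclear class the MET+LEU libraries run from 0.13 to 0.35.

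Fold changes moved with the base composition of the transcripts in this comparison. Over all genes tested, the median log2 fold change in MET+LEU vs. SD was 0.07 for the 2291 genes with under 42% GC and -0.09 for the 4273 genes with over 54% GC, and without replicate 6 these were 0.05 and -0.07. With a GC offset, an alternative chosen after seeing the data, 16 members rose and 2 fell. Over the 15907 genes tested, 1518 rose and 1001 fell with that offset. The calls of Canx, Dnajc3, Hyou1, Herpud1, Dnajb1 and Hsf1 were lost, and those of Hspa1b (0.20, adjusted p = 0.0382), Hspb1 (0.16), Hspb2 (0.23) and Edem1 (-0.18) were gained. Hsf1, with 57.8% GC, was then at -0.04 (adjusted p = 0.591). Hspa8, Hspa4, Hsph1, Hsp90aa1, Hsp90ab1, Dnaja1 and Bag3 kept their calls at log2 fold changes between 0.18 (Hsph1) and 0.25 (Hspa8). In SD vs. 2% HS the median over all genes ran the other way, from -0.07 under 42% GC to 0.04 over 54% GC. With the offset no member call was lost there, and Dnajb9 (0.12, adjusted p = 0.0364) and Hspb7 (-0.14, adjusted p = 0.0156) were gained.

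**Figure D5:**
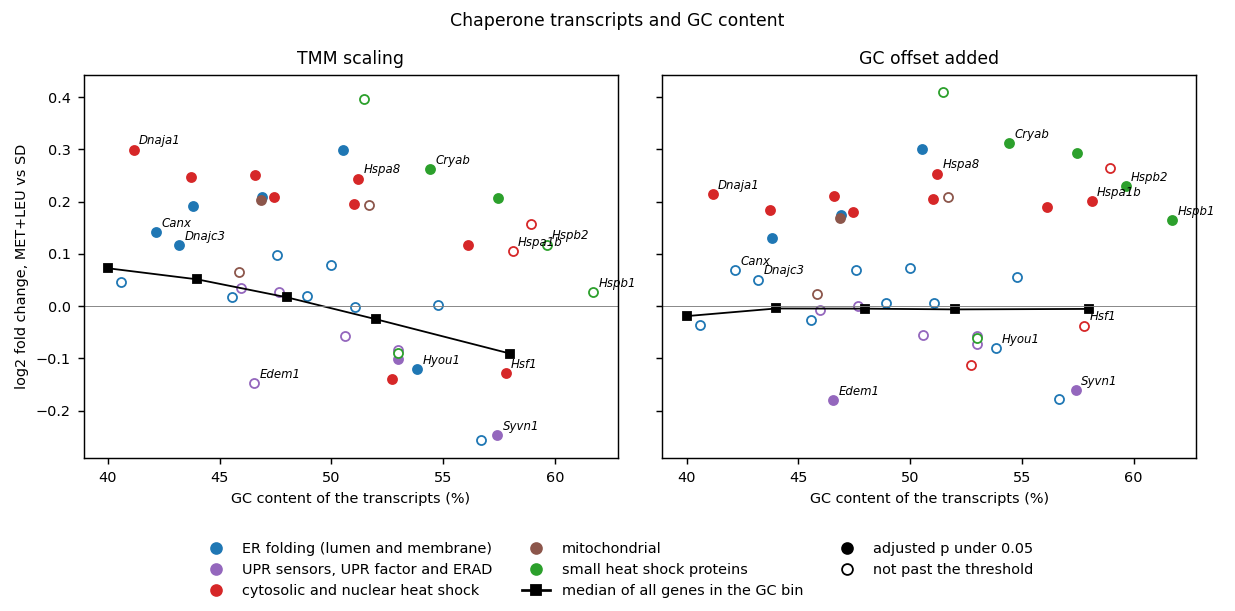
Log2 fold change of each member in MET+LEU vs. SD against the GC percent of its transcripts, with TMM scaling (left) and with a GC offset (right); colours are classes, filled points had an adjusted p under 0.05, and black squares are medians of all genes in 5 GC bins. The black line falls from 0.07 to -0.09 at the left and stays within 0.02 of 0 at the right.

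Markers of cycling cells also moved. All 6 of them (Mki67, Top2a and others) fell in MET+LEU vs. SD, where 7.8% of all genes tested fell. Their summed level was 168 to 237 CPM in SD and 124 to 158 CPM in MET+LEU. The myotube list summed to 33323 to 36014 and 33038 to 42337 CPM, most of it from Ttn (medians of 24941 and 23904 CPM). Of its 10 genes, 4 rose and none fell, where 10.6% of all genes tested rose. The part of these markers in the chaperone results was not tested.

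The fixed lists of other genes were read in MET+LEU vs. SD as well, where 10.6% of all genes tested rose and 7.8% fell. Of 29 cytosolic co-chaperones 13 rose and none fell, led by Bag1 (0.40), an exchange factor of HSP70. Of 14 genes of TRiC and prefoldin, which fold actin and tubulin, 9 rose and none fell, led by Pfdn5 (0.55). Of 17 mitochondrial chaperones and proteases 6 rose and 1 fell, with the largest change in Dnajc19 (0.73). Among the ER lists, 5 of 18 folding and oxidation genes rose and 1 fell (Fkbp2 0.66), and 4 of 18 ERAD and translocation genes rose and 2 fell (Sec62 0.28). In the PERK and integrated stress response list 1 of 11 rose and 4 fell. Trib3 fell by 0.73 (adjusted p = 0.0488) and Atf4 by 0.14 (adjusted p = 0.00356), and Ddit3 was at -0.16 (adjusted p = 0.302).

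The combination was also compared with each compound alone. These comparisons share the MET+LEU libraries with each other and with the comparison against SD. In MET+LEU vs. MET, 10 members rose and none fell (edgeR; 19 of 41 passed an unadjusted p under 0.05, beside 3588 of 15907 genes), where 5.54% of all genes tested rose and 3.15% fell, and without MET+LEU replicate 6 the count was 5. Those 5 were, with all libraries, Hspa8 (log2 fold change 0.22 ± 0.04 (SE), adjusted p = 1.66e-04), Cryab (0.22), Hspb7 (0.22), Hsp90b1 (0.18) and Hsph1 (0.17). Without replicate 6 Hspa8 was at 0.18 (adjusted p = 4.49e-04), Cryab at 0.19, Hspb7 at 0.24, Hsp90b1 at 0.13 and Hsph1 at 0.14. The calls of Dnajb11, Atf6, Hspa4, Hsp90aa1 and Hspb3 were lost without that library, with Hspa4 then at 0.07 and Hsp90aa1 at 0.08.

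In MET+LEU vs. LEU, 13 members rose and 1 fell (edgeR), where 4.61% of all genes tested rose and 1.67% fell. The ER folding class had 7 of the 13. Hspa5 went from 403, 433 and 449.6 CPM in LEU to 453, 473 and 502 CPM in MET+LEU, with no overlap (log2 fold change 0.15 ± 0.04 (SE), adjusted p = 0.0237). The others of the class were Hsp90b1 (0.23), Dnajb11 (0.21), Pdia3 (0.20), Calr (0.17), Canx (0.16) and Dnajc3 (0.13). The Hspa5 call was lost in 9 of 40 alternatives, among them upper-quartile scaling, the GC offset and leaving out any one of LEU replicates 1, 2 and 3 or MET+LEU replicates 1, 2 and 4. The Dnajc3 call was lost in 32 of 40, and without MET+LEU replicate 6 the log2 fold change was 0.10 (adjusted p = 0.180). Calr was at 0.11 without that library (adjusted p = 0.0437). With only the groups compared, the calls of Hspa5, Calr, Dnajb11, Dnajc3, Hspa4 and Hsf1 were lost. Outside the ER, Hspa4, Hsp90aa1, Hspa8, Hsph1, Hspd1 and Hspa9 rose by 0.14 (Hspa9) to 0.22 (Hspa4). Hspa4 was at 0.12 without MET+LEU replicate 6 (adjusted p = 0.0408), and its call was lost without LEU replicate 3. Hsf1 fell (log2 fold change -0.13 ± 0.04 (SE), adjusted p = 0.0487), a call lost in 13 of 40 alternatives. Without replicate 6, 12 rose and none fell.

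Whether the effect of both compounds differed from the sum of their single effects was tested as an interaction. No member was called in either direction by edgeR, 6 of 41 passed an unadjusted p under 0.05, beside 1389 of 15907 genes, and the DESeq2 Wald test called 2, where 0.0377% of all genes tested were called higher and 0.0126% lower. The 6 were Hsp90b1 (0.22, adjusted p = 0.147), Calr, Hspa8, Hsph1, Atf6 and Hspa9, named after their values were seen. Without MET+LEU replicate 6 the number called was 0 as well. Of the 41 intervals of the interaction, 35 lay within 0.3 of 0 on the log2 scale.

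The last comparison set the combination against serum-fed myotubes, with the 2% HS libraries it shares with the first. In it 24 members rose and 5 fell in MET+LEU vs. 2% HS (edgeR), where 22.1% of all genes tested rose and 20.3% fell. The ER class had 13 of 14 genes higher and a median log2 fold change of 0.44. Calr rose by 0.63 and Hspa5 by 0.41, while Dnajb9 was again not called (0.13, adjusted p = 0.0520). The cytosolic and nuclear class had 8 of 11 higher and 2 lower with a median of 0.20, and Hspa1b rose by 0.51 (adjusted p = 1.03e-07). The 5 members that fell were Herpud1 (-0.41), Atf6 (-0.30), Dnajb1 (-0.20), Hsf1 (-0.14) and Hspa9 (-0.10). With the GC offset Hsf1 was at -0.08 and was not called (adjusted p = 0.108), and Hspb1 and Hspb7 were called higher. Without replicate 6, Hspa4 was at 0.19 against 0.29, and Hsp90ab1 at 0.11 against 0.20. Without replicate 6, 26 rose and 5 fell.

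Gene pairs that share a promoter, a locus or a complex were compared within groups, as deviations of log2 CPM from the group mean over the 30 libraries (5 pairs, 100000 permutations). Hspa1a and Hspa1b had Pearson r = 0.176 and Spearman rho = -0.0171 (permutation p = 0.499 and 0.936, adjusted 0.624 and 0.936), and r = -0.0252 without the 2 libraries farthest on the x axis. The divergent pair Hspd1 and Hspe1 had r = 0.0423 and rho = -0.0492 (permutation p = 0.857 and 0.810, adjusted 0.857 and 0.936), with r = 0.107 without the 2 farthest and -0.190 without MET+LEU replicate 6. Hspb2 and Cryab had r = 0.321 and rho = 0.452 (permutation p = 0.143 and 0.0249, adjusted 0.357 and 0.124), with r = 0.447 without the 2 farthest and 0.501 without MET+LEU replicate 6 (unadjusted permutation p = 0.0156). The ER pair Hspa5 and Hsp90b1 had r = 0.166 and rho = 0.255 (permutation p = 0.378 and 0.192, adjusted 0.624 and 0.480), with r = 0.0687 without the 2 farthest and 0.349 without MET+LEU replicate 6. Hsp90aa1 and Dnaja1 had r = 0.476 and rho = 0.171 (permutation p = 0.0875 and 0.398, adjusted 0.357 and 0.664), with r = 0.00438 without the 2 farthest and 0.00708 without MET+LEU replicate 6 alone, so that relation rested on this library. Over all 30 libraries no pair passed after adjustment.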

How the data were processed

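RNA was measured by paired-end sequencing of stranded, ribosomal RNA-depleted total RNA from 30 C2C12 libraries. The authors trimmed reads with cutadapt 1.16, aligned them with STAR 2.7.6a to GRCm38 and deposited raw counts per gene from featureCounts 1.6.3; versions are from the submitters' processing notes, and the strand setting and annotation release are not given in the sources used here. Genes were filtered with filterByExpr (minimum count 10, minimum total 15), which left 15907, scaled by TMM and tested with edgeR 4.0.16 (R 4.3.3) by the quasi-likelihood test, robust option, on all 5 groups, p-values being adjusted by Benjamini-Hochberg and called under 0.05. CPM are TMM-scaled, log2 CPM use a prior count of 2, and RPKM use annotated exon length. Tests were checked on simulated data. Totals ran from 12784960 to 19604103 counts, and intervals are at 95%.

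The members and lists were chosen with earlier results of these data known. All members are given in SD vs. 2% HS and MET+LEU vs. SD by value or range; values by group are given for Hspa5, Xbp1, Hsf1, Hspa1a, Hspa1b, Hspd1, Hspe1, Cryab and up to 3 more called genes a class with the largest changes, with some others added where a result turns on them. Of the other lists, the called gene with the largest change is named, with Ddit3 and Atf4, and in SD vs. 2% HS also Eif2ak3 and Ppp1r15a. Fixed lists covered other ER folding, ERAD, PERK, TRiC and prefoldin, co-chaperone and mitochondrial genes, and markers of myotubes, myoblasts, cycling cells, fibroblasts, leukocytes, endothelium and adipocytes; the 6 myoblast markers summed to 312 to 356 CPM in SD and 285 to 349 CPM in MET+LEU. Shared 100-base stretches and GC content come from GENCODE M21 transcripts and motif windows from RefSeq (GRCm38.p6). Alternatives were DESeq2 1.42.0 size factors and Wald test, upper-quartile scaling, limma-voom (limma 3.58.1), filters on more than 5 counts in total or at least 10 counts in every library, only the groups compared, a replicate block, no robust option, each library left out and a GC offset.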

Additional observations from a re-analysis of the deposited data

Results flagged for a closer look

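Dixon's test for a library apart from the other 5 of its group was run on the log2 CPM of every member in every group. Of 205 groups in all, 15 passed its 95% critical value, and their values are printed as CPM. Chance flags about 1 in 20 such groups. MET+LEU replicate 6 had 7 of the 15, with Calr at 1062 CPM (nearest library 895.6 CPM), Pdia3 at 342.4 CPM (299.5), Hspa4 at 440.3 CPM (323), Hsp90ab1 at 1669 CPM (1336) and Dnaja1 at 153.2 CPM (123.6) above the rest, and Xbp1 at 101.6 CPM (128.7) and Edem1 at 38.4 CPM (49.06) below it. It is also the library with the highest ribosomal RNA share, and the part of that share in these values was not tested.

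The other 8 were spread over 6 libraries. In 2% HS replicate 5, Hspa8 was at 726 CPM (nearest 806.2) and Bag3 at 89.96 CPM (94.65), both low. In MET replicate 5, Dnajb9 was at 61.76 CPM (54.63) and Ern1 at 66.66 CPM (60.77), both high, and in MET replicate 3 Sdf2l1 was low at 6.573 CPM (8.771). Manf was high in SD replicate 1 at 77.85 CPM (69.95) and low in LEU replicate 2 at 66.57 CPM (69.83). Atf6 was low in SD replicate 3 at 190.6 CPM (207.4).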

How the results depend on the processing

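The counts in SD vs. 2% HS and MET+LEU vs. 2% HS stayed within 1.5 times of the values given under all alternatives. With one library left out at a time, members higher and lower ran from 19 to 20 and 3 to 4 in SD vs. 2% HS, 0 to 1 and 0 to 0 for MET alone, 0 to 2 and 0 to 0 for LEU alone, 13 to 16 and 2 to 6 in MET+LEU vs. SD, 24 to 26 and 5 to 5 in MET+LEU vs. 2% HS, 5 to 10 and 0 to 1 in MET+LEU vs. MET, and 10 to 15 and 0 to 1 in MET+LEU vs. LEU, with 0 in the interaction. The lows of 2 and 5 were without MET+LEU replicate 6, and the number lower in MET+LEU vs. SD was 3 without SD replicate 2 or MET+LEU replicate 5.

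In MET vs. SD the number higher was 0 without the robust option and 0 with the GC offset, and the number lower was 1 by the DESeq2 Wald test. In LEU vs. SD the number higher was 1 with upper-quartile scaling, 1 by the DESeq2 Wald test, 1 with the GC offset, 2 by limma-voom and 2 with only the groups compared. The number lower in MET+LEU vs. SD was 1 by limma-voom, 1 with only the groups compared and 2 with the GC offset. The number higher in MET+LEU vs. MET was 6 with upper-quartile scaling, 5 with genes of more than 5 counts in total and 5 with only the groups compared. For MET+LEU vs. LEU the number higher was 8 with only the groups compared, and the number lower was 0 with genes of more than 5 counts in total, with only the groups compared, with the replicate block and with the GC offset. The interaction had 2 higher by the DESeq2 Wald test. The cause of these changes was not tested.

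Signs turned only for values near 0. Hspa1a in SD vs. 2% HS was at -0.0075 by limma-voom and from -0.0264 to 0.134 with one library left out, and Hsf1 there ran from -0.0285 to 0.0045. Hspa5 in MET+LEU vs. SD was at -0.027 with the GC offset and from -0.0163 to 0.035 with one library left out. The correlation of Hspa1a with Hspa1b was -0.0252 with the 2 farthest libraries left out, and that of Hspd1 with Hspe1 was -0.190 without MET+LEU replicate 6.

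Whether replicate numbers pair the libraries was described without a test, and a weak pairing is not excluded. Deviations of same-numbered libraries had a mean correlation of 0.0157 over 60 pairs, of which 2 were over 0.1, against -0.00314 for different numbers, and 9 of 30 libraries correlated best with their own number. With the replicate block the numbers higher and lower were 20 and 3 in SD vs. 2% HS, 1 and 0 for MET alone, 0 and 0 for LEU alone, 15 and 5 in MET+LEU vs. SD, 24 and 5 in MET+LEU vs. 2% HS, 11 and 0 in MET+LEU vs. MET, 14 and 0 in MET+LEU vs. LEU, and 0 and 0 in the interaction.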
